A study of Mus musculus with 12 samples.

Results

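Of the 55536 features counted in RNA-seq libraries of cultured mouse splenic B cells with and without Pdap1, 9 genes were followed: *Tmem26*, *Clic4*, *Cst7*, *Tmcc3*, *Dab2ip*, *Mllt3*, *Serpinb9*, *Ms4a4c* and *Aqp9*. They were chosen because Pdap1 loss appeared to change them by different amounts, or in different directions, in the 2 culture conditions. The measure behind that choice was a small p of the genotype by stimulation term, which is the genotype difference in one culture minus the genotype difference in the other. All 9 symbols matched an Ensembl gene, and all 9 passed the filter on low counts that left 15794 genes for testing.

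B lymphocytes were isolated from spleens by depletion of CD43+ cells and cultured for 48 h. Control and Pdap1-deficient mice alike carried a heterozygous Cre allele that is active in B cells, and Pdap1-deficient mice were also Pdap1 F/F. The strain was C57BL/6, and the floxed allele has loxP sites around exon 2. Cells of 3 control and 3 Pdap1-deficient mice were each stimulated with LPS and IL-4, for class switching to IgG1, or with LPS, BAFF and TGFβ, for class switching to IgG2b, which gave 12 libraries in 4 groups of 3. These cultures are called IL-4 and BAFF-TGFβ here, since both contained LPS. The mice of the study were of both sexes and of a range of ages, which were not given per library.

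LPS drives B cells to divide, and the added cytokine directs which antibody class they switch to. IL-4 acts through Stat6, whereas TGFβ acts through Smad factors and BAFF is a survival signal for mature B cells. Pdap1 is a phosphoprotein named for its association with the growth factor PDGFA. The study also followed the integrated stress response, in which the transcription factor Atf4 induces amino acid and stress genes. The 9 genes belong to no common pathway: they encode membrane and transport proteins, inhibitors of proteases, a Ras regulator and a chromatin reader.

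Total counts were between 4579793 and 69500640, and the deepest library, of control mouse 1 with BAFF-TGFβ, stood apart by depth and by composition. Ribosomal RNA features took 5.69% of its counts, beside 1.58% and 1.74% in control mice 2 and 3 with BAFF-TGFβ. The BAFF-TGFβ library of Pdap1-deficient mouse 1 had 4.88%. *Pdap1* itself had 94.0 ± 3.33 CPM (the count scaled by the TMM-normalised library total, SD, n = 3) in control and 26.8 ± 3.31 in Pdap1-deficient IL-4 cultures, and between 80.3 and 199 against 23.0 to 26.4 CPM with BAFF-TGFβ. B cell markers were high in every library, with a sum of 7 markers between 2439 and 3607 CPM. A sum of 12 myeloid markers was between 9.26 and 29.1 CPM in the control libraries, but 348 and 584 CPM in the IL-4 and BAFF-TGFβ cultures of Pdap1-deficient mouse 2, and 40.4 and 84.1 CPM in those of Pdap1-deficient mouse 3. In Pdap1-deficient mouse 1 the same sum was 12.1 and 15.5 CPM. In the BAFF-TGFβ library of this mouse the single feature *Lars2* took 9.90% of all counts. In bulk samples such as these, fewer cells of a type cannot be told apart from less RNA per cell.

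The term ordered the genes as a description of how they were chosen. Among the 15794 genes, *Tmem26* ranked 3, *Clic4* 4, *Cst7* 5, *Tmcc3* 6, *Dab2ip* 8 and *Mllt3* 11 by the p of the term, and *Serpinb9* ranked 36. *Ms4a4c* ranked 973 and *Aqp9* 4178, so that for these 2 genes the p of the term was not small in this fit. At an unadjusted p under 0.05 the term held 755 genes, or 4.78% of those tested, and 7 of the 9 genes. At an adjusted p under 0.05 (edgeR's quasi-likelihood test, Benjamini-Hochberg) it held 0 genes, or 0.0%, against 6 by the Wald test of DESeq2. The ranks and counts of the 9 genes describe how they were chosen and are no test, and no p of the term or of the genotype difference within a culture is given for any of them. Intervals of their ratios below cover counting error only and are not tests either.

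**Figure D1:**
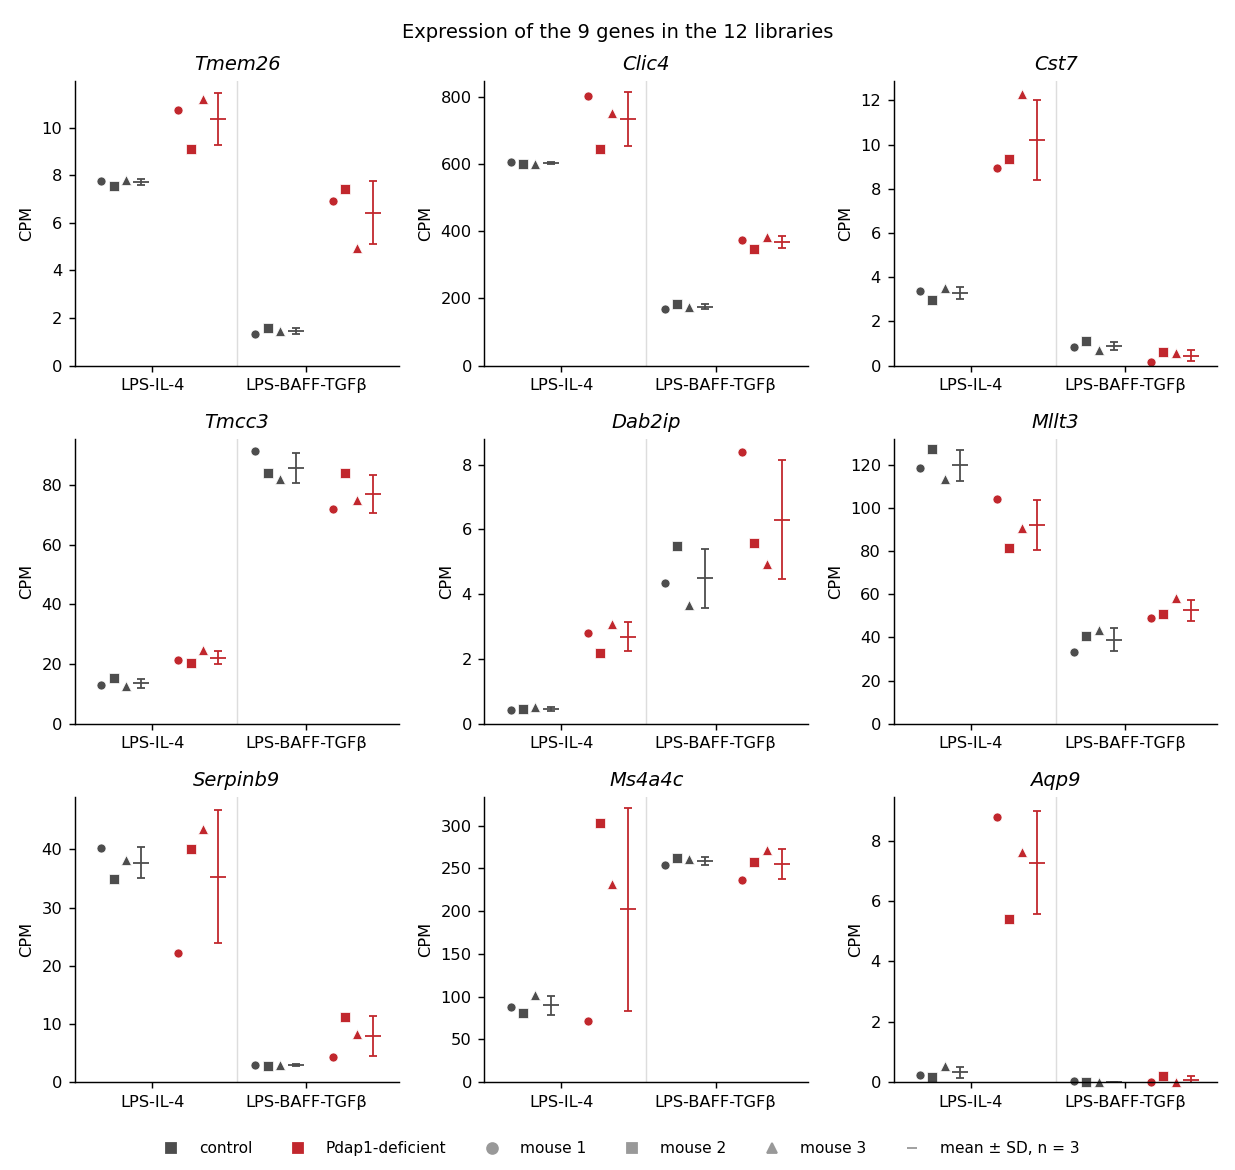
CPM (vertical axis, linear, from 0) of the 9 genes in the 12 libraries, by culture (horizontal axis) and genotype (colour), with marks for mice 1 to 3 and the mean ± SD of 3 mice beside them. *Tmem26* and *Clic4* lie higher in Pdap1-deficient libraries in both cultures, *Aqp9* stands above 5 CPM in the Pdap1-deficient IL-4 libraries alone, and *Ms4a4c* is split between the Pdap1-deficient mice with IL-4.

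*Tmem26* (ENSMUSG00000060044, GRCm38 chr10:68723646-68782650, plus strand) encodes a membrane protein that is used as a surface marker of beige adipocytes. With IL-4 it had 7.74, 7.55 and 7.80 CPM in control mice 1, 2 and 3, and 10.7, 9.12 and 11.2 CPM in Pdap1-deficient mice 1, 2 and 3. In the BAFF-TGFβ culture the values were 1.33, 1.58 and 1.46 CPM in control mice against 6.93, 7.43 and 4.92 CPM in those lacking Pdap1. The Pdap1-deficient values lay above all control values in both cultures, and the 3 control BAFF-TGFβ libraries were the lowest of all 12. The fitted log2 fold change was 0.43 ± 0.19 (SE) with IL-4 and 2.15 ± 0.22 with BAFF-TGFβ, a difference of 1.72 ± 0.29. In ratios of group means these were 1.35 and 4.41.

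*Clic4* (ENSMUSG00000037242, chr4:135213969-135272814, minus strand) encodes a chloride intracellular channel protein with a glutathione transferase fold, which moves between cytosol, membranes and nucleus and is known to take part in TGFβ signalling. It had the highest level per length of the 9 genes in the control IL-4 group, at 91.5 ± 0.481 CPM per kb of exon. Its values were 605, 600 and 599 CPM for the controls and 803, 645 and 752 CPM for the Pdap1-deficient mice with IL-4. They were 169, 184 and 174 CPM in control mice against 373, 348 and 383 CPM in those lacking Pdap1 with BAFF-TGFβ. The genotypes did not overlap in either culture, and every IL-4 library was above every BAFF-TGFβ library. The genotypes differed by 0.29 ± 0.10 (log2, SE) with IL-4 and by 1.07 ± 0.10 with BAFF-TGFβ. *Clic4* and *Tmem26* were the 2 genes of the 9 that were higher without Pdap1 in both cultures with no overlap.

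*Aqp9* (ENSMUSG00000032204, chr9:71110659-71168682, minus strand) encodes an aquaglyceroporin, a channel for water, glycerol and urea known from liver and leukocytes. With IL-4 it had 3, 2 and 6 counts in control mice, or 0.247, 0.180 and 0.526 CPM, and 113, 89 and 72 counts in Pdap1-deficient mice, or 8.79, 5.41 and 7.61 CPM. In the BAFF-TGFβ libraries it had 1 count in 1 library of each genotype and 0 counts in the other libraries. The gene was thus near absent from 9 libraries and present in 3. The ratio of Pdap1-deficient to control IL-4 cultures was 22.8, with an exact 95% interval of 12.6 to 46.3 that covers counting error only. No fold is given between genotypes with BAFF-TGFβ, where both groups were under a floor of 3 counts, and the fitted term of -2.95 ± 2.26 depends on how the fit treats such counts. *Aqp9* therefore shows a genotype difference in one culture and no measurable level in the other. The sum of myeloid markers in the Pdap1-deficient IL-4 libraries of mice 1, 2 and 3 was 12.1, 348 and 40.4 CPM. The part of these markers in the values of *Aqp9* was not tested.

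*Ms4a4c* (ENSMUSG00000024675, chr19:11404770-11427246, plus strand) belongs to the tetraspan MS4A family, whose best known member is CD20 (*Ms4a1*). It had 87.4, 80.2 and 102 CPM for the controls and 71.2, 303 and 232 CPM for the Pdap1-deficient mice 1, 2 and 3 with IL-4. The BAFF-TGFβ libraries had 254, 262 and 261 CPM in control mice against 237, 257 and 272 CPM in those lacking Pdap1. The IL-4 genotypes overlapped, because Pdap1-deficient mouse 1 lay below all controls while mice 2 and 3 lay near the level of the other culture. The order of the 3 mice, lowest in mouse 1 and highest in mouse 2, was the order of the myeloid marker sum in the same libraries, 12.1, 40.4 and 348 CPM for mice 1, 3 and 2. With BAFF-TGFβ the marker sum was 15.5, 584 and 84.1 CPM for Pdap1-deficient mice 1, 2 and 3. There *Ms4a4c* was highest in mouse 3, and its values lay near those of the controls, whose marker sum was 20.8 to 29.1 CPM. The part of these markers in the result was not tested. With both cultures of Pdap1-deficient mouse 2 left out the difference of differences was -0.78, with those of mouse 1 left out it was -1.51, and over all mice it was -1.19 ± 0.57 on the log2 scale.

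*Tmcc3* (ENSMUSG00000020023, chr10:94311949-94590956, plus strand) encodes a protein of the endoplasmic reticulum membrane. It had 12.8, 15.2 and 12.6 CPM for the controls and 21.5, 20.4 and 24.6 CPM for the Pdap1-deficient mice with IL-4. Its BAFF-TGFβ values were 91.3, 83.9 and 81.8 CPM in control mice against 71.8, 84.0 and 75.0 CPM in those lacking Pdap1. It was thus separated between genotypes at its low level and overlapped at its high level. The genotypes differed by 0.71 ± 0.12 (log2, SE) with IL-4 and by -0.16 ± 0.11 with BAFF-TGFβ.

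*Cst7* and *Serpinb9* encode inhibitors of proteases. *Cst7* (ENSMUSG00000068129, chr2:150570415-150578944, plus strand) encodes cystatin F, which inhibits lysosomal cathepsins, among them the cathepsin that activates granzymes, and is known from natural killer (NK) cells, cytotoxic T cells and myeloid cells. With IL-4 it had 3.38, 2.97 and 3.5 CPM for the controls and 8.95, 9.36 and 12.3 CPM for the Pdap1-deficient mice. The other culture gave 0.858, 1.09 and 0.731 CPM in control mice against 0.161, 0.619 and 0.586 CPM in those lacking Pdap1. Every Pdap1-deficient library was above the controls in one culture and below them in the other, but the low values rest on 1, 3 and 5 counts against 54, 9 and 6. From the summed counts the ratio of Pdap1-deficient to control was 3.09 (exact 95% interval 2.5 to 3.85) with IL-4 and 0.565 (0.248 to 1.14) with BAFF-TGFβ, where 9 counts stand against 69.

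Markers of the cells known to express *Cst7* varied between the libraries. The sum of 9 NK markers was 1.73, 1.08 and 5.69 CPM in control and 1.17, 7.84 and 3.17 CPM in Pdap1-deficient IL-4 libraries of mice 1, 2 and 3. With BAFF-TGFβ it was between 0.779 and 1.70 CPM in control and between 0.938 and 1.77 CPM in Pdap1-deficient libraries, where 6 and 4 of the 9 markers had a count. Of these markers *Prf1* had the most counts there, 49 and 19, and *Gzmb*, *Ncr1* and *Klra8* had 0. The sum of 11 T cell markers was between 1.53 and 15.1 CPM in control and between 1.48 and 33.6 CPM in Pdap1-deficient IL-4 libraries. The myeloid sum, given above, was higher in Pdap1-deficient mice 2 and 3 than in every control library. The part of these markers in the values of *Cst7* was not tested.

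*Serpinb9* (ENSMUSG00000045827, chr13:33003250-33017957, plus strand) encodes an intracellular serpin that inhibits granzyme B and protects cytotoxic lymphocytes from their own granules. It had 40.2, 34.9 and 38.1 CPM for the controls and 22.3, 40.1 and 43.6 CPM for the Pdap1-deficient mice with IL-4, and the genotypes overlapped. BAFF-TGFβ libraries of the same mice had 2.97, 2.68 and 2.92 CPM in control mice against 4.35, 11.1 and 8.32 CPM in those lacking Pdap1, which lay above all controls. Pdap1-deficient mouse 1 was the lowest of its group in both cultures, as it was for *Ms4a4c* and for the myeloid marker sum. That sum was highest in mouse 2 in both cultures, whereas *Serpinb9* was highest in mouse 2 with BAFF-TGFβ but in mouse 3 with IL-4. With BAFF-TGFβ the sum was 15.5 CPM in Pdap1-deficient mouse 1 and 20.8 to 29.1 CPM in controls, which had less *Serpinb9*. The part of these markers in the result was not tested. The genotypes differed by -0.10 ± 0.26 (log2, SE) with IL-4 and by 1.45 ± 0.32 with BAFF-TGFβ. Without both cultures of Pdap1-deficient mouse 2 the difference of differences was 1.36, against 1.54 ± 0.42 over all mice.

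*Dab2ip* and *Mllt3* act in signalling and in chromatin. *Dab2ip* (ENSMUSG00000026883, chr2:35558266-35730994, plus strand) encodes a Ras GTPase-activating protein that also serves as a scaffold for tumor necrosis factor signalling through Map3k5. It had 0.412, 0.450 and 0.526 CPM in control IL-4 cultures, from 5, 5 and 6 counts, and 2.80, 2.19 and 3.07 CPM in Pdap1-deficient ones. After BAFF-TGFβ stimulation it stood at 4.34, 5.47 and 3.65 CPM for the controls and 8.39, 5.57 and 4.92 CPM for the Pdap1-deficient mice. The genotypes were apart with IL-4 and overlapped with BAFF-TGFβ. The genotypes differed by 2.51 ± 0.33 (log2, SE) with IL-4 and by 0.49 ± 0.27 with BAFF-TGFβ, and the ratio of summed counts with IL-4 was 5.78 (exact 95% interval 3.39 to 10.5). The gene overlaps the antisense transcript *Gm13446* over 347 exonic bases, but this transcript had 0 counts.

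*Mllt3* (ENSMUSG00000028496, chr4:87769925-88033364, minus strand) encodes AF9, which reads acylated histones and recruits the methyltransferase Dot1l and the super elongation complex. It had 119, 127 and 113 CPM in control mice against 104, 81.3 and 90.8 CPM in those lacking Pdap1 with IL-4. In the other culture it reached 33.2, 40.5 and 43.2 CPM for the controls and 48.9, 51.0 and 58.1 CPM for the Pdap1-deficient mice. The Pdap1-deficient libraries lay below all controls in one culture and above all controls in the other. The genotypes differed by -0.38 ± 0.12 (log2, SE) with IL-4 and by 0.44 ± 0.13 with BAFF-TGFβ, both under a 1.5-fold change in size.

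**Figure D2:**
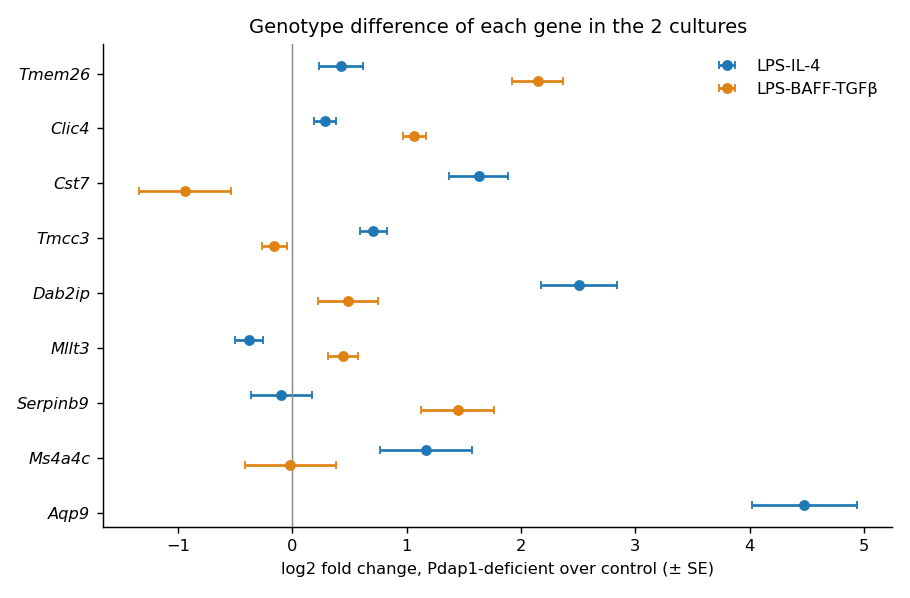
Fitted log2 fold change, Pdap1-deficient over control (horizontal axis, ± SE), of each gene (vertical axis) with IL-4 and BAFF-TGFβ. *Tmem26*, *Clic4*, *Serpinb9* and *Mllt3* lie farther right with BAFF-TGFβ, and *Dab2ip*, *Tmcc3*, *Cst7* and *Ms4a4c* with IL-4. The fitted value changes sign between the cultures for *Cst7*, *Mllt3*, *Serpinb9*, *Tmcc3* and *Ms4a4c*. The BAFF-TGFβ point of *Aqp9* is left out because both groups were under 3 counts.

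Across the 9 genes the genotypes did not overlap for 7 genes with IL-4 and for 5 with BAFF-TGFβ. Among all 15794 genes these shares were 31.1% and 17.9%. *Cst7* and *Mllt3* were the 2 genes separated in opposite directions, a pattern held by 0.348% of all genes. These counts follow in part from the choice of the genes, and nothing is read from them. The median log2 fold change of the 9 genes was 0.71 with IL-4 and 0.49 with BAFF-TGFβ, beside 0.04 and 0.00 over all genes. These medians include *Aqp9*, whose BAFF-TGFβ value is not defined by the counts. They too follow in part from the choice, and nothing is read from them.

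The same 12 libraries can be read the other way, as the difference between the 2 cultures in each genotype. This difference was smaller in size in Pdap1-deficient than in control mice for 7 of the 9 genes and larger for *Cst7*. For *Aqp9* the counts, given below, do not place it. For *Tmem26* the fitted log2 difference, BAFF-TGFβ minus IL-4, was -2.42 ± 0.22 in control and -0.70 ± 0.20 in Pdap1-deficient mice. For *Clic4* it was -1.78 ± 0.10 and -1.0 ± 0.10, and for *Mllt3* -1.62 ± 0.13 and -0.80 ± 0.13. For *Serpinb9* it was -3.71 ± 0.31 and -2.16 ± 0.29. These 4 genes were lower with BAFF-TGFβ in both genotypes and less so without Pdap1. *Dab2ip* and *Tmcc3* were higher with BAFF-TGFβ, by 3.25 ± 0.33 and 2.66 ± 0.12 in control and by 1.23 ± 0.27 and 1.80 ± 0.12 in Pdap1-deficient mice. *Cst7* was lower with BAFF-TGFβ by -1.88 ± 0.30 in control and -4.45 ± 0.35 in Pdap1-deficient mice.

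Among the 4205 genes that differed between the cultures on average, 61.7% had a smaller difference in Pdap1-deficient mice. Among the 401 of these with an unadjusted p of the term under 0.05 the share was 74.3%, so that among these genes too a smaller difference between cultures was the more common form.

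The pairing of cultures rests on the numbers given in the description of the series. In control mice 1 and 3 the deviations of the 2 cultures from their group means correlated at -0.39 and -0.35. By these numbers each mouse was cultured both ways, which allows the difference to be taken within a mouse. For *Tmem26* it was -2.42, -2.16 and -2.31 for the controls and -0.62, -0.29 and -1.16 for the Pdap1-deficient animals, on the log2 CPM scale with a prior count of 2 and in the order of mice 1, 2 and 3. For *Serpinb9* it was -3.70, -3.64 and -3.64 against -2.32, -1.83 and -2.37, and for *Dab2ip* 3.02, 3.25 and 2.51 against 1.54, 1.30 and 0.66. In each of these genes the 3 control mice lay on one side of the 3 Pdap1-deficient mice. For *Ms4a4c* it was 1.54, 1.71 and 1.36 in control and 1.73, -0.24 and 0.23 in Pdap1-deficient mice, so that Pdap1-deficient mouse 1 lay beside the controls and the 2 others near 0. For *Aqp9*, where the BAFF-TGFβ values are 0 or 1 counts, the size within a mouse is set by the prior count.

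**Figure D3:**
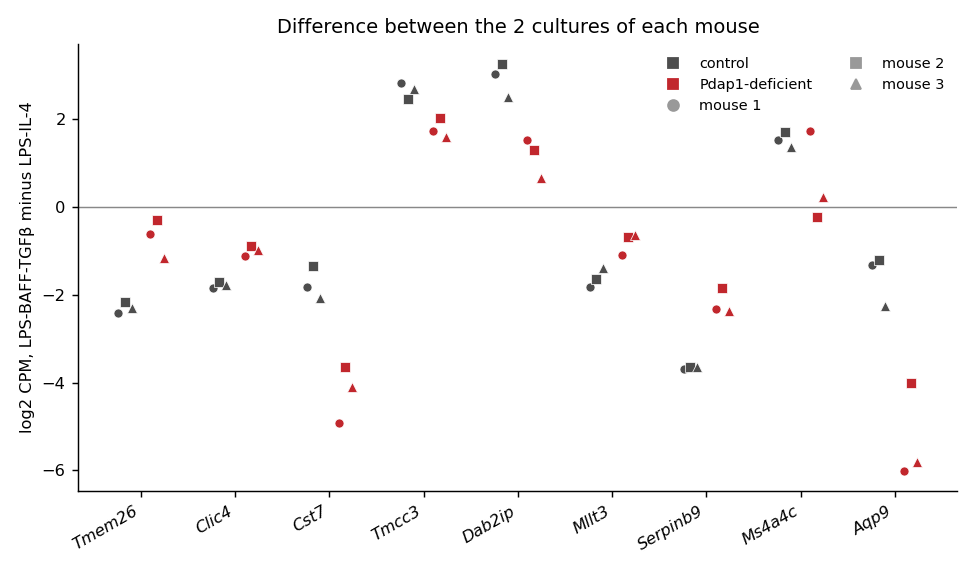
Difference in log2 CPM (prior count 2) between the BAFF-TGFβ and IL-4 cultures of the same mouse (vertical axis), for each gene (horizontal axis) and genotype (colour), with 1 mark per mouse. Control and Pdap1-deficient mice do not overlap for the genes other than *Ms4a4c* and *Aqp9*. For *Ms4a4c*, Pdap1-deficient mouse 1 lies beside the controls. The distance between the marks of *Aqp9* is not read, since the prior count sets its size. The genes were chosen for a difference of this kind, so that the separation is no test.

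Averages over the 2 genotypes, or over the 2 cultures, were not the measure named for the choice and were tested in the fit of all 12 libraries. The genes were chosen with earlier results of these same libraries known, so that the averages cannot be called independent of the choice. They also share the estimate of the spread in this fit with the term, and genes with a small p tend to have a small spread. *Aqp9* passed the filter on low counts through the Pdap1-deficient IL-4 libraries alone, where it is high, so that it is left out of the counts of this comparison. Averaged over genotypes, the other 8 genes differed between the cultures at an adjusted p under 0.05 (edgeR's quasi-likelihood test), beside 26.6% of all genes. *Tmem26*, *Clic4*, *Cst7*, *Mllt3* and *Serpinb9* were higher with IL-4, and *Tmcc3*, *Dab2ip* and *Ms4a4c* with BAFF-TGFβ. The libraries of the 2 cultures did not overlap in either genotype for 7 of the 8, which was the case for 18.0% of all genes, and *Ms4a4c* was the exception. The sizes, BAFF-TGFβ minus IL-4, ran from -3.16 ± 0.23 for *Cst7* (adjusted p = 1.89e-07) to 2.24 ± 0.21 for *Dab2ip* (adjusted p = 2.6e-06). *Cst7* reached the level of the filter in 7 libraries, from both IL-4 groups and the control BAFF-TGFβ group. It was thus kept mainly through the culture where it is high, and had 9 counts in Pdap1-deficient BAFF-TGFβ libraries. Its p is therefore no independent test of the culture difference. For *Aqp9* the ratio of IL-4 to BAFF-TGFβ in summed counts was 143 in Pdap1-deficient mice, with an exact 95% interval of 25.4 to 5662, and 27.1 in control mice, with an interval of 3.94 to 1168.

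The smallest of these differences was that of *Ms4a4c*, at 0.93 ± 0.28 (adjusted p = 0.0378 from edgeR). With the mouse as a replicate block its adjusted p was 0.0523 (edgeR), and it missed the threshold in 16 of 23 other settings. The other 7 genes passed in all of the 23.

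Averaged over cultures, 4 of the 8 genes other than *Aqp9* differed between genotypes, beside 9.48% of all genes, and the 4 were higher in Pdap1-deficient mice. *Dab2ip* was higher by 1.5 ± 0.21 on the log2 scale (adjusted p = 0.000969 from edgeR), *Tmem26* by 1.29 ± 0.15 (adjusted p = 0.00014) and *Clic4* by 0.68 ± 0.07 (adjusted p = 5.51e-05). These edgeR fits treat the 2 cultures of a mouse as independent. The 3 genes passed under each of 24 other settings, including limma on 1 mean value per mouse, which treats the 3 mice of a genotype as the replicates. By limma the adjusted p was 0.0133 for *Dab2ip*, 0.00448 for *Tmem26* and 0.00584 for *Clic4*. *Tmcc3* was higher by 0.28 ± 0.08 (adjusted p = 0.0489 from edgeR, 0.136 by limma on means per mouse), and passed in 3 of the 24 other settings. *Serpinb9* had 0.67 ± 0.21 (adjusted p = 0.0601 from edgeR; 0.0148 by DESeq2), *Ms4a4c* 0.58 ± 0.28 (adjusted p = 0.22) and *Cst7* 0.34 ± 0.25 (adjusted p = 0.44), none past the threshold by edgeR. *Aqp9* is left out of this comparison too, since it passed the filter on low counts through the Pdap1-deficient IL-4 libraries alone. Its fitted size, which ran from 1.58 to 3.41 over 24 settings, rests on 1 count per genotype with BAFF-TGFβ and is no measure of the difference. For *Mllt3* the opposite differences of the cultures cancelled to 0.03 ± 0.09. With both cultures of Pdap1-deficient mouse 1 left out, *Serpinb9* had 0.93 and *Ms4a4c* 0.79, each with an adjusted p of 0.000915 from edgeR. This setting was chosen after seeing the data. It keeps Pdap1-deficient mice 2 and 3, whose myeloid marker sums were 348 and 40.4 CPM with IL-4, and the part of these markers was not tested. Of the 24 other settings, *Serpinb9* passed in 4 and *Ms4a4c* in 2.

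Relatives of the 9 genes were listed by family or complex, 83 genes in 8 lists, of which 53 passed the filter. *Tmem26* had no listed family. For the term, 3 relatives had an unadjusted p under 0.05 and 0 passed after adjustment by edgeR or by DESeq2. With IL-4, 4 of 51 tested relatives were higher in Pdap1-deficient cells and 0 were lower (edgeR, adjusted p under 0.05), beside 2.79% of all genes called higher and 4.92% called in either direction. At an unadjusted p under 0.05 there were 10 of the 51, beside 23.8% of all genes, and DESeq2 called the same 4 with *Ctsl* and *Ms4a4a*. With BAFF-TGFβ, 0 of 49 passed by edgeR, beside 0.462% of all genes, with 9 at an unadjusted p under 0.05, beside 10.6% of all genes, and 1, *Ms4a6b*, passed by DESeq2. The median log2 fold change of the tested relatives was 0.17 with IL-4 and 0.08 with BAFF-TGFβ, beside 0.02 and 0.01 over all genes tested there.

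Among the partners of *Mllt3* in the super elongation and Dot1l complexes, 2 of 15 rose with IL-4. *Ell2*, an elongation factor, had 85.5 ± 1.61 CPM in control and 120 ± 5.57 CPM in Pdap1-deficient cultures (log2 fold change 0.48 ± 0.09, adjusted p = 0.0208 from edgeR). *Aff1*, a scaffold of the complex, had 90.4 ± 6.95 and 139 ± 30.2 CPM (0.61 ± 0.14, adjusted p = 0.0359 from edgeR). *Mllt3* itself lay lower without Pdap1 in that culture, with a mean of 119.6 ± 7.03 CPM in control and 92.1 ± 11.5 CPM in Pdap1-deficient libraries.

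Among Ras GTPase-activating proteins and partners of *Dab2ip*, *Rasa3* rose with IL-4, from 121 ± 11.4 to 185 ± 40.8 CPM (0.59 ± 0.14, adjusted p = 0.0425 from edgeR), and the other 9 tested did not pass. In the MS4A family, *Ms4a6c* rose with IL-4 from 22.7 ± 2.40 to 44.8 ± 14.6 CPM (0.96 ± 0.22, adjusted p = 0.0477 from edgeR), and its term was -0.73 ± 0.27 (unadjusted p = 0.0175, adjusted p = 0.983), with the sign that *Ms4a4c* had. It ran from 28.5 to 56.7 CPM over the 3 Pdap1-deficient IL-4 libraries. In the same libraries *Ms4a6d* ran from 0.467 to 29.2 CPM, *Ms4a4a* from 1.01 to 8.27 CPM and *Ms4a6b* from 16 to 89.4 CPM, and the sum of myeloid markers from 12.1 to 348 CPM, whose part in these values was not tested. Of the transcript of *Ms4a4c*, 8.19% of 50-base words also occur in *Ms4a4b* or *Ms4a4d*, so that reads from there could be assigned to neither or to the wrong gene.

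The term was past an unadjusted p of 0.05 for *Clic1*, at -0.34 ± 0.15, and for *Serpinb1a*, at -0.73 ± 0.34, each with an adjusted p of 0.983 from edgeR. Both had the sign opposite to that of their relative among the 9, *Clic4* at 0.78 ± 0.14 and *Serpinb9* at 1.54 ± 0.42. Of 10 tested cystatins and lysosomal cathepsins, 2 genes of the TMCC family, and 3 aquaporins or glycerol kinase, none passed in a genotype comparison within a culture by edgeR, and *Ctsl* passed with IL-4 by DESeq2. *Gzmb*, which encodes the protease that Serpinb9 inhibits, had 64 counts over all 12 libraries and was not tested.

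**Figure D4:**
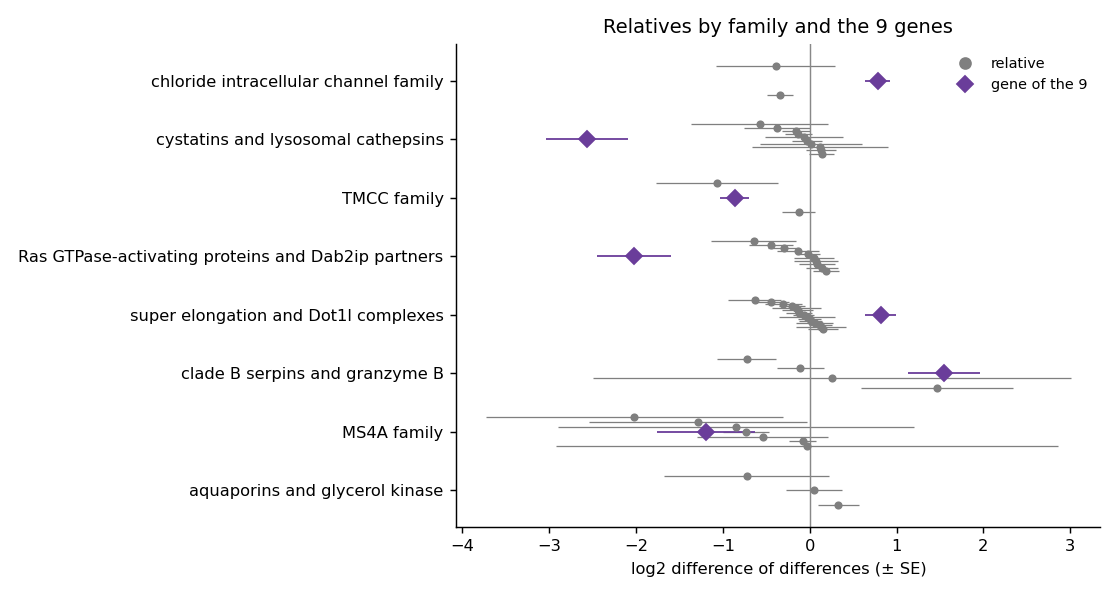
Log2 difference of differences (horizontal axis, ± SE: genotype difference with BAFF-TGFβ minus that with IL-4) of the tested relatives in each family or complex (vertical axis, grey) and of the gene of the 9 that belongs to it (violet). The 9 genes were chosen for this value and the relatives were not; none of the 53 relatives passed the adjusted threshold, and *Aqp9* is left out because its value is not defined by the counts.

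The gene whose log2 CPM was most like that of a given member over the 12 libraries was sought among 11347 protein-coding genes. The measure was Pearson's r over 12 points that form 4 groups, so that it mainly reflects the group means, and no p is given. For *Tmem26* the most like gene was *Sbf2* (r = 0.981), a guanine nucleotide exchange factor, and *Sbf2* was also the second for *Clic4* (r = 0.958), after *Nploc4* (r = 0.966). *Sbf2* had 31.3, 37.2, 17.2 and 28.9 CPM in control and Pdap1-deficient IL-4 and in control and Pdap1-deficient BAFF-TGFβ cultures. It thus had the order of *Clic4* and *Tmem26* over the 4 groups, with a smaller range. For *Mllt3* the most like were *Man1b1* (r = 0.985) and *Nfkb1* (r = 0.980), the gene of the NF-κB subunit p105, and for *Serpinb9* they were *Sgpl1* (r = 0.983) and *Bcl2l11* (r = 0.978), the gene of the proapoptotic protein Bim.

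*Aqp9* was most like *Prdm1* (r = 0.976), the gene of Blimp-1, which drives plasma cell differentiation. *Prdm1* had 17.4 and 62.3 CPM in control and Pdap1-deficient IL-4 cultures and 7.98 and 9.77 CPM with BAFF-TGFβ. *Cst7* was most like *Tbk1* (r = 0.957) and *Bhlha15* (r = 0.951), the gene of the secretory cell factor Mist1, which had 3.20, 5.98, 0.5 and 0.417 CPM in the same order of groups. *Prdm1* and *Bhlha15* are both known from antibody-secreting cells. A sum of 7 plasmablast markers, *Prdm1* among them, was between 630 and 680 CPM in control and between 752 and 900 CPM in Pdap1-deficient IL-4 libraries, and between 471 and 531 CPM in all BAFF-TGFβ libraries. *Xbp1* and *Irf4* made up most of this sum, with 301 to 321 and 287 to 309 CPM in control and 309 to 392 and 322 to 400 CPM in Pdap1-deficient IL-4 libraries. *Sdc1*, the gene of the plasma cell surface marker CD138, went the other way, with 6.42 to 9.90 CPM in control and 3.95 to 5.84 CPM in Pdap1-deficient IL-4 libraries, and *Mzb1* overlapped, with 6.42 to 8.32 and 4.62 to 8.17 CPM. The part of these markers in the values of *Aqp9* and *Cst7* was not tested. *Tmcc3* was most like *Emid1* (r = 0.991), *Dab2ip* like *Gng2* (r = 0.969) and *Ms4a4c* like *Gm8369* (r = 0.979).

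**Figure D5:**
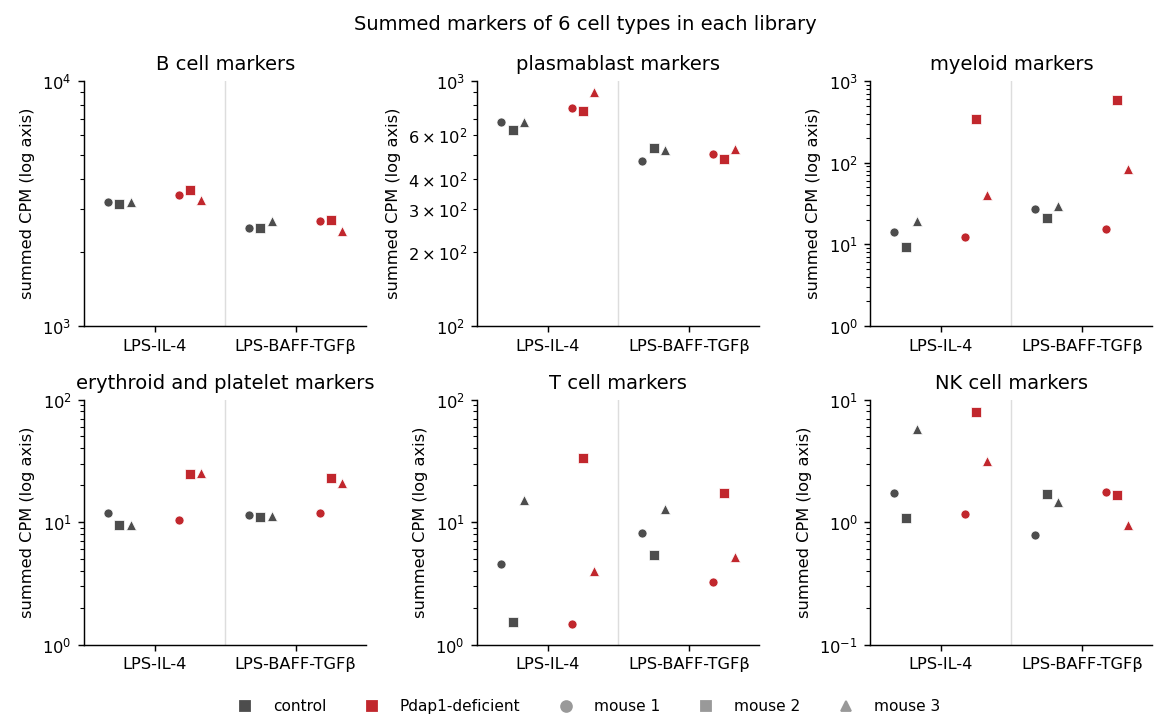
Summed CPM (vertical axis, logarithmic) of the markers of 6 cell types in each library, by culture (horizontal axis), genotype (colour) and mouse (mark). Myeloid markers reach 348 and 584 CPM in Pdap1-deficient mouse 2 and stay at 12.1 and 15.5 CPM in Pdap1-deficient mouse 1. B cell markers lie at 3147 to 3202 CPM in control and 3271 to 3607 CPM in Pdap1-deficient IL-4 libraries. With BAFF-TGFβ they lie at 2439 to 2711 CPM.

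The promoters of all 9 genes were found in the RefSeq table (GRCm38.p6; 250 bases before to 50 after each start) and searched on both strands for 4 short motifs tied to the signals and the stress response of this study. The Stat6 element, TTC and GAA with 4 bases of any kind between them, was in the promoters of 2 of the 9 genes, *Tmem26* and *Mllt3*, and in 6.95% of all 32851 promoters. The Atf4-C/EBP element TGATGNAA was in that of *Aqp9* alone, and in 3.97% of all. The AP-1 element TGANTCA was in those of *Aqp9*, *Cst7* and *Tmcc3*, and in 7.81% of all. The Smad element GTCTG was in those of *Aqp9*, *Mllt3* and *Ms4a4c*, and in 49.6% of all. A gene was counted if any of its promoters held a match, and *Tmcc3*, *Dab2ip*, *Aqp9* and *Mllt3* had multiple promoters each. The percentages are per promoter, so the counts of genes cannot be set against them, and no enrichment is read from either. The stretches below, which lie outside annotated exons, show 3 of the motif matches before the starts of *Tmem26*, the gene of the 9 with the largest measured genotype difference with BAFF-TGFβ, and of *Aqp9*, the gene with the largest one with IL-4, in lower case with the matches in capitals.
Tmem26, chr10:68723496-68723558, plus strand, Stat6 element: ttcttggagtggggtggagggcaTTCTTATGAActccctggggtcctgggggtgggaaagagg
Aqp9, chr9:71162634-71162727, minus strand, Atf4-C/EBP and AP-1 elements: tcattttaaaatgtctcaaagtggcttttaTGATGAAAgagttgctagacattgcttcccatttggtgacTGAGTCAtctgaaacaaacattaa
The *Tmem26* match begins 227 bases before the RefSeq start. The *Aqp9* matches begin 64 and 24 bases before one of its RefSeq starts, which lies inside the longer gene model given above. A second Stat6 match of *Tmem26*, inside an annotated exon, and a Smad match of *Aqp9* before its other start are not shown. A match describes these letters only, and is neither a bound site nor a cause of a value given here.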

How the data were processed

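RNA-seq counts of 12 libraries were used. The authors depleted ribosomal RNA, trimmed reads with Trim Galore 0.6.1, mapped them to GRCm38 with STAR 2.6 and counted them per Ensembl gene with HTSeq 0.9.1, and deposited these counts without normalization. A second deposited table, normalized with DESeq2, was not used. The annotation release and strand setting of the counting are not given in the sources used here. The labels also name the cell line CH12 and an mRNA kit, whereas the methods speak of a total RNA kit and of B cells taken from spleens. Genes were named from GENCODE M21, which matched all 55536 features, of which 23840 had no count.

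The 9 genes and all lists were chosen with earlier results of these data known. A model of 4 group means was fitted with edgeR 4.0.16 (R 4.3.3; filterByExpr, TMM factors from 0.904 to 1.06, robust quasi-likelihood F test), with Benjamini-Hochberg adjustment over all genes and a threshold of 0.05. Within a culture, 6 libraries were fitted, with 15074 (LPS-IL-4) and 14079 genes (LPS-BAFF-TGFβ). CPM used TMM-scaled totals. The median biological coefficient of variation was 19.2%. Ratios of few counts have exact intervals that cover counting error only. No 2 libraries of a group agreed within sampling noise (chi-square per degree of freedom at least 7.07). The fits were tested on simulated data.

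Alternatives were DESeq2 1.42.0, its size factors in edgeR, no filter, thinning to the smallest library, limma 3.58.1 on means per mouse, replicate blocks, each library left out, and, chosen after seeing the data, both cultures of each mouse left out. The 2 cultures of a mouse share its number by the description of the series. Their deviations from the group means correlated at 0.52, 0.67 and 0.58 in the Pdap1-deficient mice, but at -0.39, 0.42 and -0.35 in control mice 1, 2 and 3. The IL-4 library of control mouse 3 correlated at 0.60 with the BAFF-TGFβ library of control mouse 1. Named genes were the 9, *Pdap1*, relatives with an unadjusted p of the term under 0.05 or an adjusted p under 0.05 within a culture, and the 2 most like genes of each of the 9. *Ctsl*, *Gzmb*, *Ms4a4a*, *Ms4a6b*, *Ms4a6d* and single cell type markers were named after their values were seen, as were the libraries described as standing apart. One marker of the B cell list is not reported here and was left out of its sum.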

Additional observations from a re-analysis of the deposited data

Results flagged for a closer look

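*Cst7* and *Mllt3* stood out because every Pdap1-deficient library moved one way against every control library with LPS-IL-4 and the opposite way with LPS-BAFF-TGFβ. The difference of differences was -2.57 on the log2 scale for *Cst7* and 0.82 for *Mllt3*. Because the genes were chosen for this difference, it was not tested.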

How the results depend on the processing

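The genotype by stimulation term held 0 genes in the fit of all libraries, 6 by DESeq2 and 1, *Prdm1*, with no filter on low counts. With single libraries left out it held between 0 and 1 genes. The 1 was *Ms4a4c*, called without the LPS-IL-4 library of Pdap1-deficient mouse 1, which describes a gene chosen for this term and is no test of it. With the mouse as a replicate block it held 0. The count of genes that differed between genotypes on average, 1497, was 356 by limma on means per mouse, between 605 and 2067 with single libraries left out, and 753, 628 and 516 without control mouse 1, 2 or 3. It was 633 and 606 without Pdap1-deficient mouse 2 or 3, and 1908 without mouse 1. Within LPS-IL-4 the count of 741 was 1217 by DESeq2, 1694 with no filter, and between 69 and 1759 with single libraries left out. Within LPS-BAFF-TGFβ the count of 65 was 172 by DESeq2, 257 with no filter, 133 with all 12 libraries in 1 fit, and between 19 and 116 with single libraries left out. The replicate block, on the number shared by mice of both genotypes, gave 641 and 48, and 1454 for the average. The cause of these shifts was not tested.

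For *Mllt3* the averaged genotype difference of 0.03 turned sign with no filter (-0.015), with single libraries left out (-0.0227 to 0.0740), and without control mouse 1 (-0.0273) or Pdap1-deficient mice 1 (-0.00327) or 3 (-0.00229). It was past the threshold in none of 24 settings. The difference of differences, for which the genes were chosen, is given as a description only: over 23 alternatives it was between 1.52 and 1.95 for *Tmem26*, between 0.70 and 0.87 for *Clic4*, between -2.88 and -2.19 for *Cst7* and between -1.59 and -0.77 for *Ms4a4c*. With 3 counts or fewer per group, depth does not allow a genotype difference of *Aqp9* with LPS-BAFF-TGFβ to be measured, and *Cst7* and *Dab2ip* rest on under 10 counts in several libraries.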
